A study of Mus musculus with 4 samples.

Results

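The SLC25 family is the set of mitochondrial carriers. All genes whose symbol starts with Slc25a were followed along 4 mouse tibialis anterior muscles, and within the family genes were taken by name, whatever their measured values. This gave 47 carrier genes of the 28989 entries that name a single gene, after 1 pseudogene entry with 19 transcripts was left out. SLC25 proteins are nuclear-encoded and mostly sit in the inner mitochondrial membrane, where each lets a small set of solutes cross: ADP against ATP, phosphate, amino acids, carboxylates, acylcarnitines, cofactors, iron or glutathione. Muscle fibres depend on them, because ATP made inside the mitochondrion has to reach the myofibrils and fuel has to come in. The members of the family that are best known in skeletal muscle are the adenine nucleotide translocator ANT1 (Slc25a4), the phosphate carrier (Slc25a3) and the aspartate-glutamate carrier aralar (Slc25a12).

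Tibialis anterior is a fast muscle of the lower leg, and it was studied here by TOMO-seq. In that assay frozen sections are cut one after another along a tissue, and each section's RNA gets its own barcode before CEL-Seq2 counts the 3′ ends of transcripts by unique molecular identifiers (UMIs). All 4 samples belong to 1 group, mouse tibialis anterior, and the labels give no strain, genotype, treatment, age or sex, so the comparisons are between positions along the same muscles. The authors kept 37, 45, 46 and 43 sections of muscles 1 to 4, which is 171 sections.

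Over these sections muscles 1 to 4 gave 18924848, 17114433, 26989829 and 22878407 transcripts, with 86190 to 1159697 in a single section. The length of a muscle was split evenly into 5 zones, whose sums ran from 1989683 to 6604613 transcripts. Zone 1, called the first end, holds the low barcode numbers, and zone 5 is the last end. The labels do not give which end of the muscle this is. Barcode number was taken as the order of sections, and all 4 muscles as cut from the same end. Neither is given in the labels, and every comparison of zones depends on both. Muscles 1 and 2 shared 1 barcode set and muscles 3 and 4 another. These pairs are called batches here on that ground alone. Mitochondrially encoded transcripts made up 59.1, 60.9, 64.1 and 66.9% of the transcripts of muscles 1 to 4. The defining genes of the labelled tissue were abundant: the 6 muscle fibre genes (Acta1, Ckm, Ttn, Myh4, Myh1 and Atp2a1) summed to at least 46156 TMM-scaled CPM in the middle zone of every muscle. CPM are counts scaled to a library total of 1000000, and TMM-scaled CPM also use the TMM factors of the fit described below. The brown adipocyte gene Ucp1 had no count. Whether each muscle is from another animal is not in the labels, so p-values measure only the spread among these samples, which may be technical.

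In all, 207610 Slc25a transcripts were counted among 85907516. Levels below are CPM over all transcripts of the muscle that were assigned to a single gene. Because CEL-Seq2 counts 1 end per transcript, levels of different carriers are compared as numbers of molecules, with no division by length. Carriers with a count numbered 44, 44, 43 and 44 in muscles 1 to 4. The family summed to 2480, 2241, 2586 and 2296 CPM. Of the 47 carriers, 6 averaged 30 CPM or more, 26 averaged 1 to 30 CPM and 15 averaged under 1 CPM. The 6 abundant ones (Slc25a4, Slc25a12, Slc25a3, Slc25a39, Slc25a11 and Slc25a51) held 90.4, 90.2, 91.2 and 92.3% of the family's transcripts in muscles 1 to 4.

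**Figure D1:**
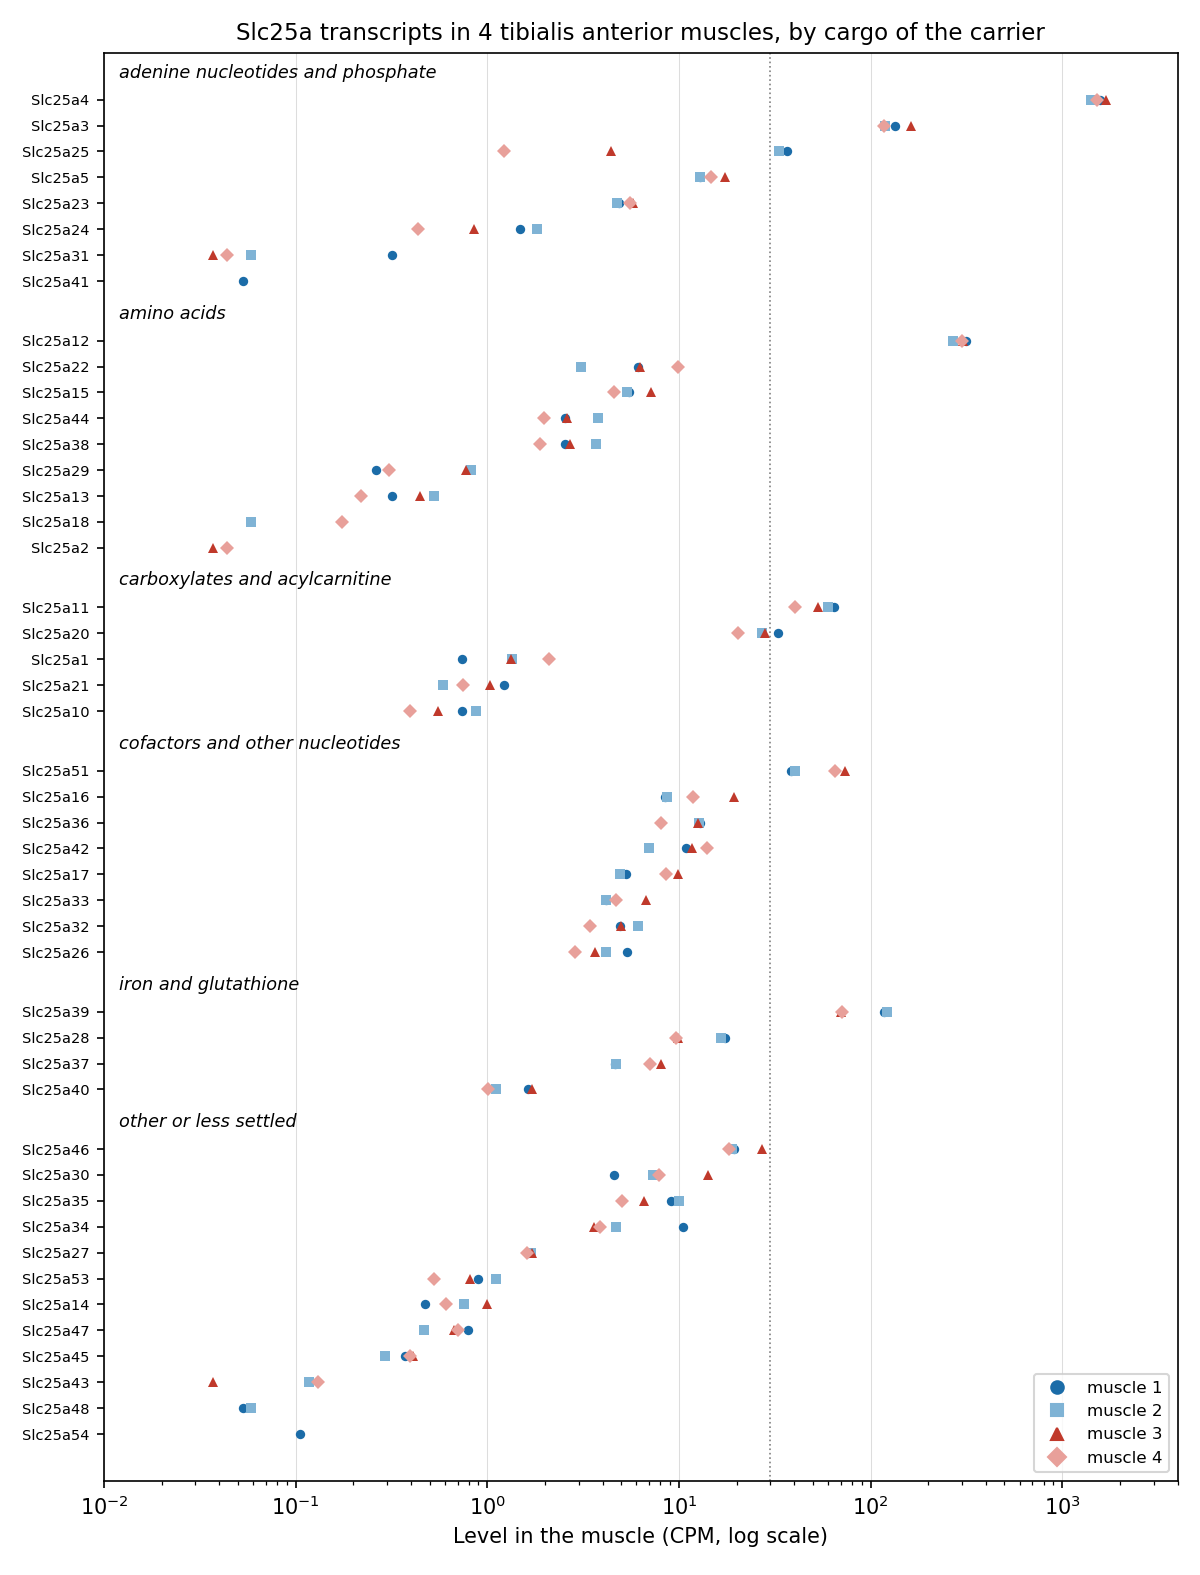
Levels of the Slc25a carriers reported here in the 4 muscles, in CPM on a log axis, with 1 point per muscle; carriers listed at 0 in a muscle have no point there, and the dotted line marks 30 CPM. Slc25a4 lies between 1411 and 1694 CPM in all 4 muscles, above every other carrier, and 15 of the 47 average under 1 CPM.

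Sequences upstream of the carriers called along the muscle, and of the most abundant carrier Slc25a4, which was not called, are shown first, because motifs of factors known to act on mitochondrial genes can be looked for in them. Promoters of 36 of the 47 carriers, and of 20 of the 28 tested for position, were found in the RefSeq promoter table (build GRCm38.p6), and the 250 bases before each start were searched on both strands. The motifs were the ETS core CCGGAAG (bound by GABPA, also called NRF2, among others), the NRF1 motif, the motif AAGGTCA of the oestrogen-related receptors, and TCGCGAGA. The last is part of the palindrome TCTCGCGAGA and is labelled palindrome below. It was added after the sequences had been read. The windows below are 30 bases, 5′ to 3′ along the gene's own strand, with the matching letters in capitals, and where motifs overlap the whole matching run is in capitals.
Slc25a3, ETS core, chr10:91124124-91124153, minus strand: cactagcagggCCGGAAGggctggggttgg
Slc25a3, NRF1 motif on the opposite strand, chr10:91124162-91124191, minus strand: ctttggatctGCGCCTGCGCagtaggaatc
Slc25a20, ETS core, chr9:108662046-108662075, plus strand: gaggagggcagCCGGAAGtagacttcaggg
Slc25a11, palindrome, chr11:70647258-70647287, minus strand: cgttcaaagtaTCGCGAGAgtgcttgccac
Slc25a11, palindrome, chr11:70647195-70647224, minus strand: gctgaaatataTCGCGAGAggcctcatagc
Slc25a11, palindrome on the opposite strand, chr11:70647153-70647182, minus strand: gattcacttgcTCTCGCGAggttttcaaac
Slc25a4, ETS core, chr8:46211174-46211203, minus strand: acccctagctcCCGGAAGcgtcttcgcccc
Slc25a4, palindrome, chr8:46211063-46211092, minus strand: gtccctcctccTCTCGCGAGAcgccgagcc
The Slc25a11 windows lie in an intron and the Slc25a4 windows in an exon of longer transcripts in GENCODE M21, whereas those of Slc25a3 and Slc25a20 lie upstream of the gene. Some genes have several promoters, up to 3 among the carriers, so shares are given per gene. The ETS core was present in a promoter of 7.83% of the 27025 genes (6.91% of all 32851 promoters) and in 5 of the 20 tested carriers with a promoter (Slc25a17, Slc25a20, Slc25a3, Slc25a38 and Slc25a4). The NRF1 motif was present in 4.23% of genes and in 1 carrier (Slc25a3), and the receptor motif in 4.70% of genes and in 1 carrier (Slc25a34). TCGCGAGA was present in 0.977% of genes and in 2 carriers (Slc25a11 and Slc25a4). Of the windows shown, only that of Slc25a4 holds the full palindrome. No letters of these motifs were found in the Slc25a39 window. A match describes the letters only.

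The carriers of adenine nucleotides and phosphate, 8 genes, held 71.9% of the family's transcripts and averaged 1723 ± 130 CPM (SD, n = 4). Slc25a4 (chr8:46206797-46211284, minus strand, GRCm38), which exchanges ADP for ATP across the inner membrane, had 1572, 1411, 1694 and 1523 CPM in muscles 1 to 4, a mean of 1550 ± 117 (SD, n = 4). It alone made up 64.8% of the family and ranked 35 among all genes by mean level. At most 49.4% of the possible UMIs of Slc25a4 were used in a section, where the correction for repeated UMIs added 37.9%, so its count was not saturated. Its paralog Slc25a5 (ANT2), the form of proliferating and non-muscle cells, averaged 14.5 ± 2.19 CPM (SD, n = 4), and there were 122, 110, 96.9 and 103 Slc25a4 transcripts per Slc25a5 transcript in muscles 1 to 4. Slc25a5 has near-identical processed copies in the genome, so its count is uncertain. Slc25a31, the translocator of the male germ line, had 9 transcripts in all.

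Slc25a3 (chr10:91116574-91124059, minus strand) brings in the phosphate that ATP synthase joins to ADP. It had 134, 119, 162 and 117 CPM in muscles 1 to 4, a mean of 133 ± 20.9 (SD, n = 4). The remaining members of the group carry ATP-Mg against phosphate, and of these Slc25a25 averaged 18.9 ± 18.7 CPM (SD, n = 4), Slc25a23 averaged 5.23 CPM and Slc25a24 averaged 1.15 CPM. The SD of Slc25a25 is almost as large as its mean, and its values are given with the batch below.

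Of the 9 amino acid carriers, which together averaged 316 ± 20.1 CPM (SD, n = 4), Slc25a12 accounted for nearly the whole. Slc25a12 (chr2:71271063-71367749, minus strand) exports aspartate against glutamate in the malate-aspartate shuttle, which moves reducing equivalents from cytosolic NADH into the mitochondrion. It had 316, 270, 304 and 302 CPM in muscles 1 to 4 and was the second most abundant carrier, with 12.4% of the family. Its paralog Slc25a13 (citrin), the liver form, averaged 0.38 CPM. The opposite strand of Slc25a12 holds the gene Gm13641, and since the use of strand in counting is not given, reads of such partners could not be told apart.

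Slc25a11 (chr11:70644196-70647479, minus strand) exchanges oxoglutarate for malate and is the other carrier of the malate-aspartate shuttle. It had 64.7, 60.1, 53.3 and 40.1 CPM in muscles 1 to 4, and it overlaps Rnf167 on the opposite strand. Slc25a20 (chr9:108662088-108684641, plus strand) exchanges acylcarnitine for carnitine and so admits long-chain fatty acids to beta oxidation. It had 32.9, 27.04, 28.1 and 20.4 CPM. The other carboxylate carriers were low: Slc25a1, the citrate carrier, averaged 1.38 CPM, Slc25a21, the oxodicarboxylate carrier, averaged 0.90 CPM, and Slc25a10, the dicarboxylate carrier, averaged 0.64 CPM.

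Slc25a39 (chr11:102402985-102407946, minus strand), which is needed for glutathione uptake into mitochondria, had 118, 121, 70.5 and 71.3 CPM in muscles 1 to 4. Its paralog Slc25a40 averaged 1.36 CPM. The mitoferrins, which bring in iron, averaged 13.3 ± 4.15 CPM (Slc25a28) and 6.11 ± 1.73 CPM (Slc25a37, the form of erythroid cells; SD, n = 4 each).

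Slc25a51 (chr4:45395923-45408766, minus strand), the mitochondrial NAD+ transporter, led the carriers of cofactors and other nucleotides. It had 38.5, 40.1, 73.7 and 64.95 CPM in muscles 1 to 4, with the values of muscles 1 and 2 below those of muscles 3 and 4. The other 8 members of this group averaged at most 12.1 CPM (Slc25a16), and all 9 were high enough to be tested. In the order of levels, Slc25a4 and Slc25a12 stood apart from all others in every muscle. The ranges over muscles of Slc25a3 and Slc25a39 overlapped, as did those of Slc25a39 and Slc25a51 and of Slc25a51 and Slc25a11, and 7 carriers had 10 or fewer transcripts in all.

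The question the sections allow is whether carriers differ by position along the muscle. Zone sums were tested with edgeR (quasi-likelihood F-test, muscle as a block, Benjamini-Hochberg adjustment over all 9317 genes that passed the filter on low counts), and a gene is called where its adjusted p is under 0.05. Of the 47 carriers, 28 passed the filter. Values by zone are CPM scaled by the TMM factors of the fit, because the mitochondrially encoded share varied between zones from 54.7 to 71.8% and moves plain CPM of all nuclear genes.

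No carrier was called between the ends (mean of zones 1 and 5) and the middle (zone 3) by edgeR, against 1.45% of all genes tested (0.623% higher and 0.826% lower at the ends). Of the genes at 30 CPM or more, 4.06% were called and 1.96% were called higher, against none of the 6 carriers at that level. At an unadjusted p under 0.05 the count was 2 of 28, against 11.9% of all genes, and DESeq2 and limma called 0 as well, with 1 and 5 at an unadjusted p under 0.05. The log2 differences of the 28 carriers ran from −0.37 to 0.63 with a median of −0.05, beside −0.01 over all genes; 9 were positive and 19 negative. Slc25a38, the mitochondrial glycine carrier used for haem synthesis, had a log2 difference of 0.63 ± 0.26 (SE, adjusted p = 0.276 by edgeR), positive in 4 of 4 muscles. Slc25a51 had 0.17 ± 0.07 (SE, adjusted p = 0.331 by edgeR), positive in 3 of 4 muscles. The SE of the 28 carriers ran from 0.06 to 0.26 with a median of 0.15, which sets the size of difference that this design could resolve. Of the marker genes of the more oxidative fibres, Myh2 (log2 difference −0.71) and Myl3 (−0.92) were called lower at the ends in the same fit.

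Between the first and the last end, 4 of the 28 tested carriers were called, all higher at the first end: Slc25a3, Slc25a39, Slc25a20 and Slc25a11. Over all genes 3.18% were called in this contrast, 2.04% as higher and 1.14% as lower at the first end. Abundant genes were called more often, and of the 1428 genes at 30 CPM or more, 11.9% were called and 8.47% were called higher; 3 of the 6 carriers at that level were. The median log2 difference of the 28 carriers was 0.19, beside −0.003 over all genes; 19 were positive and 9 negative, and 8 were positive in all 4 muscles. At an unadjusted p under 0.05 the count was 12 of 28, all higher at the first end, against 13.5% of all genes in either direction.

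The phosphate carrier Slc25a3 had 138.9, 133.9, 162.5 and 154.0 TMM-scaled CPM at the first end of muscles 1 to 4, against 113.7, 78.6, 130.5 and 138.5 at the last end. It was higher at the first end of every muscle, though the ranges of the ends overlap between muscles. The log2 difference was 0.36 ± 0.08 (SE, adjusted p = 0.00427 by edgeR), and by muscle it was 0.29, 0.77, 0.32 and 0.15. Muscle 2 showed the widest gap, and the middle zone lay nearer to the first end, with means of 147.4 ± 13.2 in zone 1, 139.3 ± 24.6 in zone 3 and 115.3 ± 26.6 in zone 5 (SD, n = 4 each).

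The acylcarnitine carrier Slc25a20 had 35.1, 34.8, 28.7 and 27.6 TMM-scaled CPM at the first end, against 27.3, 18.3, 21.6 and 19.5 at the last end. Every first end lay above every last end. The log2 difference was 0.51 ± 0.12 (SE, adjusted p = 0.0085 by edgeR), and by muscle it was 0.36, 0.91, 0.40 and 0.49. It was the largest difference among the called carriers, at the lowest level of expression of the 4.

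The oxoglutarate-malate carrier Slc25a11 had 70.6, 69.3, 50.7 and 54.7 TMM-scaled CPM at the first end, against 55.3, 43.96, 43.8 and 44.1 at the last end. The first end was higher in each muscle. The log2 difference was 0.37 ± 0.10 (SE, adjusted p = 0.0171 by edgeR), and by muscle it was 0.35, 0.65, 0.21 and 0.31. Slc25a11 and Slc25a20 were the only carboxylate and acylcarnitine carriers high enough to be tested. Thus 2 of 2 tested members of this group were called, beside 3.18% of all genes tested (11.9% of those at 30 CPM or more).

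The glutathione-related carrier Slc25a39 had 100.8, 123.9, 76.1 and 105.9 TMM-scaled CPM at the first end, against 99.7, 87.9, 60.4 and 70.998 at the last end. Muscle 1 showed almost no gap and the other 3 muscles did. The log2 difference was 0.36 ± 0.09 (SE, adjusted p = 0.00709 by edgeR), and by muscle it was 0.02, 0.49, 0.33 and 0.57. Zone 2 was the highest zone on average, with 104.0 ± 28.96, and zone 5 the lowest, with 79.8 ± 17.5 (SD, n = 4 each).

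Slc25a4 itself had 1597, 1451, 1704 and 2027 TMM-scaled CPM at the first end, against 1395, 1246, 1486 and 1661 at the last end. It was higher at the first end of every muscle by similar amounts (0.19, 0.22, 0.20 and 0.29 on the log2 scale), but its adjusted p of 0.0538 by edgeR missed the threshold, with a log2 difference of 0.22 ± 0.07 (SE). Aralar, Slc25a12, had 333.7, 278.3, 306.0 and 368.7 TMM-scaled CPM at the first end, against 281.0, 214.9, 284.6 and 372.6 at the last end. In muscle 4 the order was the other way round, and the log2 difference of 0.17 ± 0.07 (SE) was not called (adjusted p = 0.235 by edgeR). Slc25a51 had 35.5, 41.3, 78.4 and 91.03 TMM-scaled CPM at the first end, against 35.4, 43.96, 75.5 and 78.03 at the last end. Its ends differed far less than its muscles did (log2 difference 0.08 ± 0.09 (SE), adjusted p = 0.802 by edgeR).

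**Figure D2:**
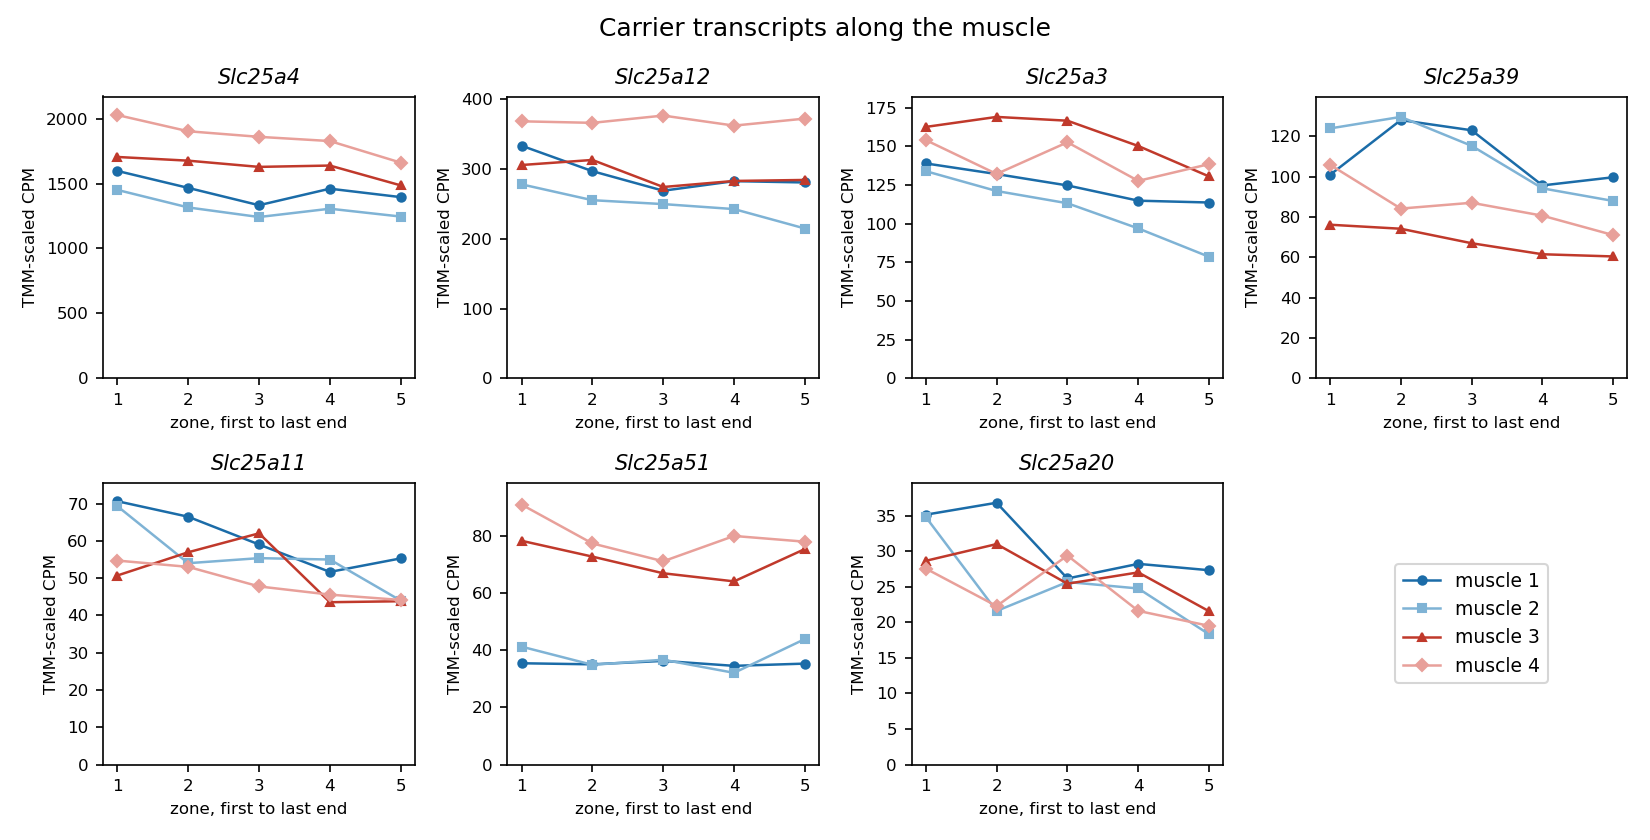
TMM-scaled CPM of the 7 carriers described by zone, against zone number from the first to the last end, with 1 line per muscle and an axis that starts at 0 in each panel. Slc25a3, Slc25a39, Slc25a11 and Slc25a20, which were called, are lower in zone 5 than in zone 1 of each muscle, and the lines of Slc25a51 separate by muscle.

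Grouped by what they carry, the 4 called carriers fell as follows, beside 3.18% called over all genes. Of the carboxylate and acylcarnitine carriers 2 of 2 tested were called, of the adenine nucleotide and phosphate carriers 1 of 5, and of the iron and glutathione carriers 1 of 3. Of the amino acid carriers 0 of 5 were called, of the less settled members 0 of 4, and of the cofactor and nucleotide carriers 0 of 9. In the last group 3 of 9 differences were positive, with a median of −0.09, whereas all 4 less settled members were positive. Whether these groups differ from each other was not tested. Outside the called genes, Slc25a5 (log2 difference 0.43 ± 0.15 SE, adjusted p = 0.111 by edgeR) and the coenzyme A carrier Slc25a42 (0.47 ± 0.16 SE, adjusted p = 0.102 by edgeR) came next after Slc25a4.

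Among the carriers not called, the larger differences were those of scarce genes, and the muscles went apart in some of them. Slc25a15, the ornithine carrier, had a fitted log2 difference of 0.61 ± 0.25 (SE, adjusted p = 0.227 by edgeR), with −0.24, 1.46, 0.03 and 2.18 in muscles 1 to 4. Slc25a37, mitoferrin 1, had 0.51 ± 0.22 (SE, adjusted p = 0.250 by edgeR), with 0.77, −0.79, 0.87 and 0.37. In both genes 3 muscles favoured the first end and 1 the last. Slc25a34, a carrier whose solute is not settled, had 0.60 ± 0.24 (SE, adjusted p = 0.205 by edgeR) and was positive in 4 of 4 muscles. The glycine carrier Slc25a38 had 0.52 ± 0.29 (SE, adjusted p = 0.457 by edgeR), with 0.69, 0.53, 0.34 and 0.29, and it too was positive in all 4, as was Slc25a42. The folate and FAD carrier Slc25a32 had the most negative difference, −0.38 ± 0.26 (SE, adjusted p = 0.595 by edgeR), and was the 1 carrier that was negative in all 4 muscles. The 19 carriers that did not pass the filter averaged at most 1.66 CPM (Slc25a27), and no position difference was read from them.

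In the test for any difference among the 5 zones, 3 carriers were called, against 3.98% of all genes: Slc25a39 (adjusted p = 0.0012 by edgeR), Slc25a3 (adjusted p = 0.00678) and Slc25a11 (adjusted p = 0.0194). Slc25a20 missed the threshold in this test, and 10 of the 28 had an unadjusted p under 0.05.

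**Figure D3:**
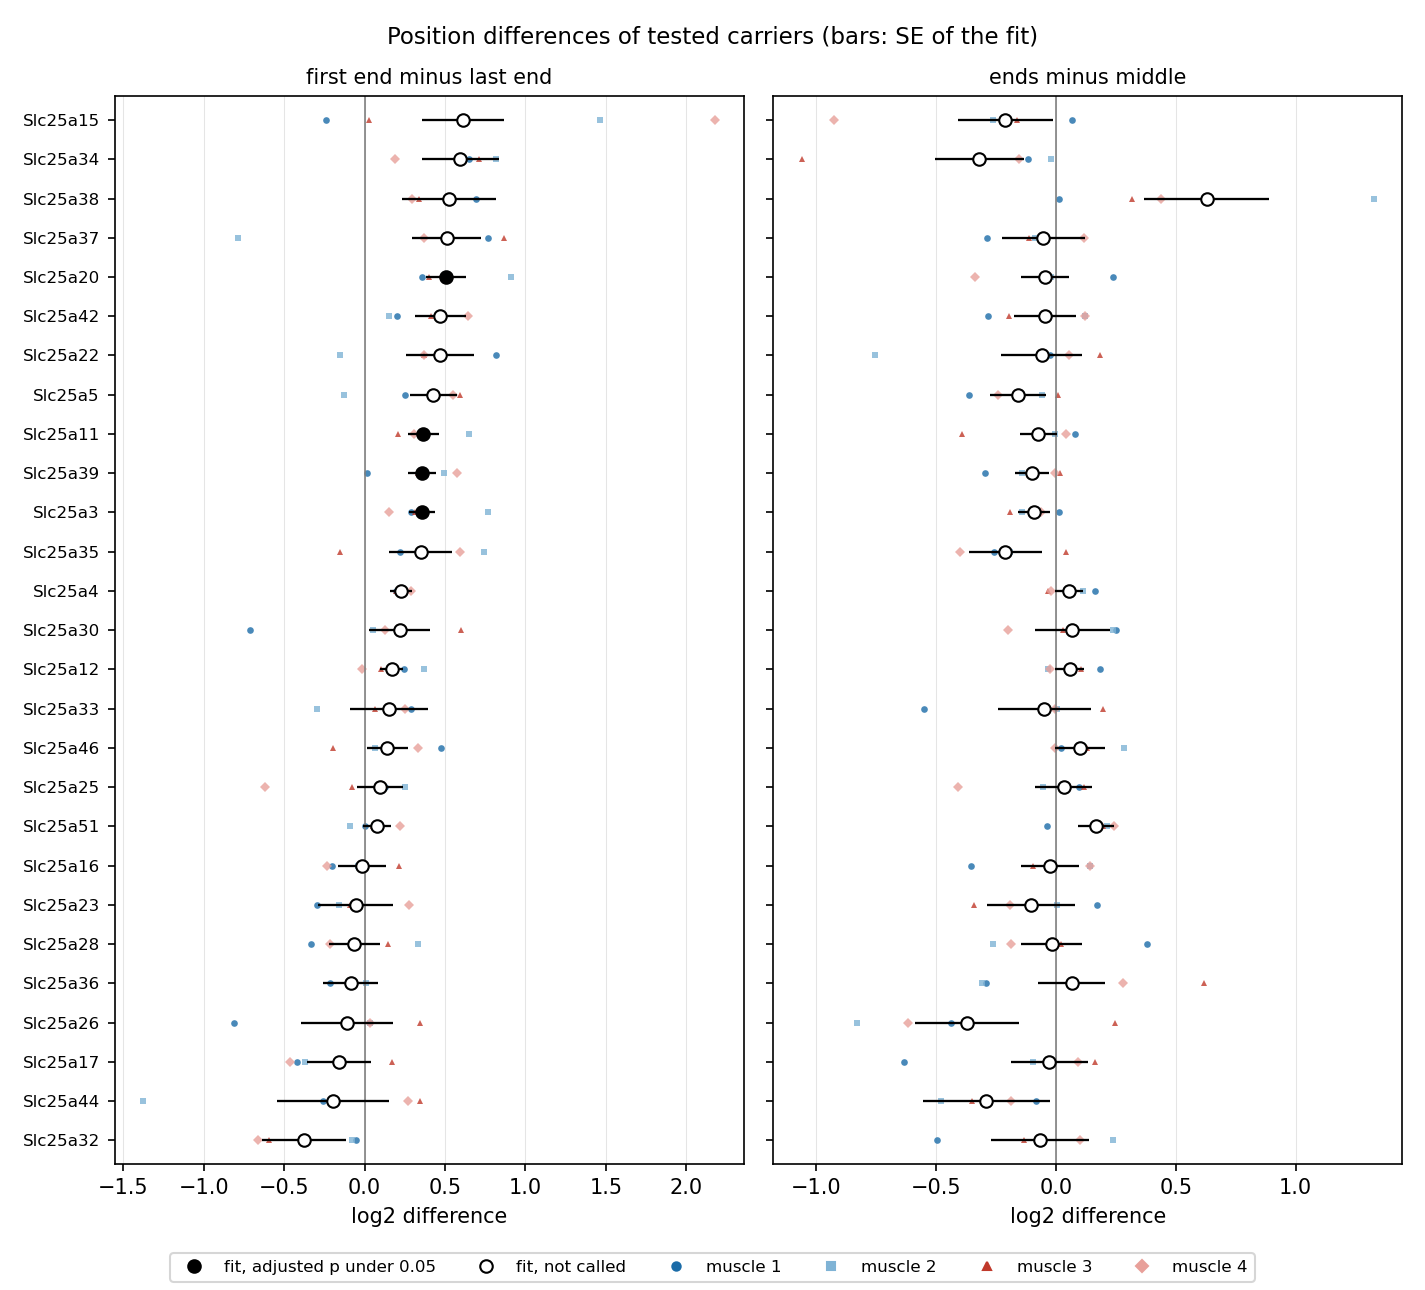
Log2 differences of the tested carriers reported here, first end minus last end on the left and ends minus middle on the right, with circles and bars for the fitted value and its SE and small symbols for the single muscles. Filled circles are the 4 carriers called, Slc25a20, Slc25a11, Slc25a39 and Slc25a3, all to the right of 0 in the left panel; no circle is filled in the right panel.

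The first-end calls depend on how zones are scaled. With plain library totals in place of TMM (an alternative chosen after seeing the data), 0 of 28 carriers were called: the log2 differences were 0.25 for Slc25a3, 0.24 for Slc25a39, 0.25 for Slc25a11 and 0.40 for Slc25a20, with adjusted p from 0.145 to 0.359 by edgeR, and the median of all genes lay at −0.11. The mitochondrially encoded share was 62.9, 65.5, 64.5 and 66.5% at the first end of muscles 1 to 4, against 58.6, 55.4, 62.5 and 65.8% at the last end. It was higher at the first end of all 4, and its part in the lost calls was not tested. With the totals of nuclear-encoded transcripts instead, 5 carriers were called. Without muscle 2, in which Slc25a3, Slc25a20 and Slc25a11 had their widest gap, 0 were called, with log2 differences of 0.26 for Slc25a3, 0.32 for Slc25a39, 0.29 for Slc25a11 and 0.41 for Slc25a20 (adjusted p from 0.100 to 0.217 by edgeR). Within the batches, muscles 1 and 2 alone gave 2 calls and muscles 3 and 4 alone gave 1.

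The summed level of the family, of which Slc25a4 held 61.5 to 67.2% over the 20 zones, was 2500, 2318, 2614 and 3034 TMM-scaled CPM at the first end of muscles 1 to 4, against 2184, 1905, 2285 and 2558 at the last end. On the plain CPM scale it was 2404, 2170, 2659 and 2557 at the first end, against 2385, 2352, 2398 and 2016 at the last end, and in muscle 2 the order reversed. Over the 20 zones Slc25a12 held 11.1 to 14.6% of the family, Slc25a3 held 4.12 to 6.71% and Slc25a39 held 2.50 to 6.14%, and there were 9.77 to 15.9 Slc25a4 transcripts per Slc25a3 transcript. The sum thus mainly follows Slc25a4, which was not called, and 9 of the 28 tested carriers had negative first-end differences.

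**Figure D4:**
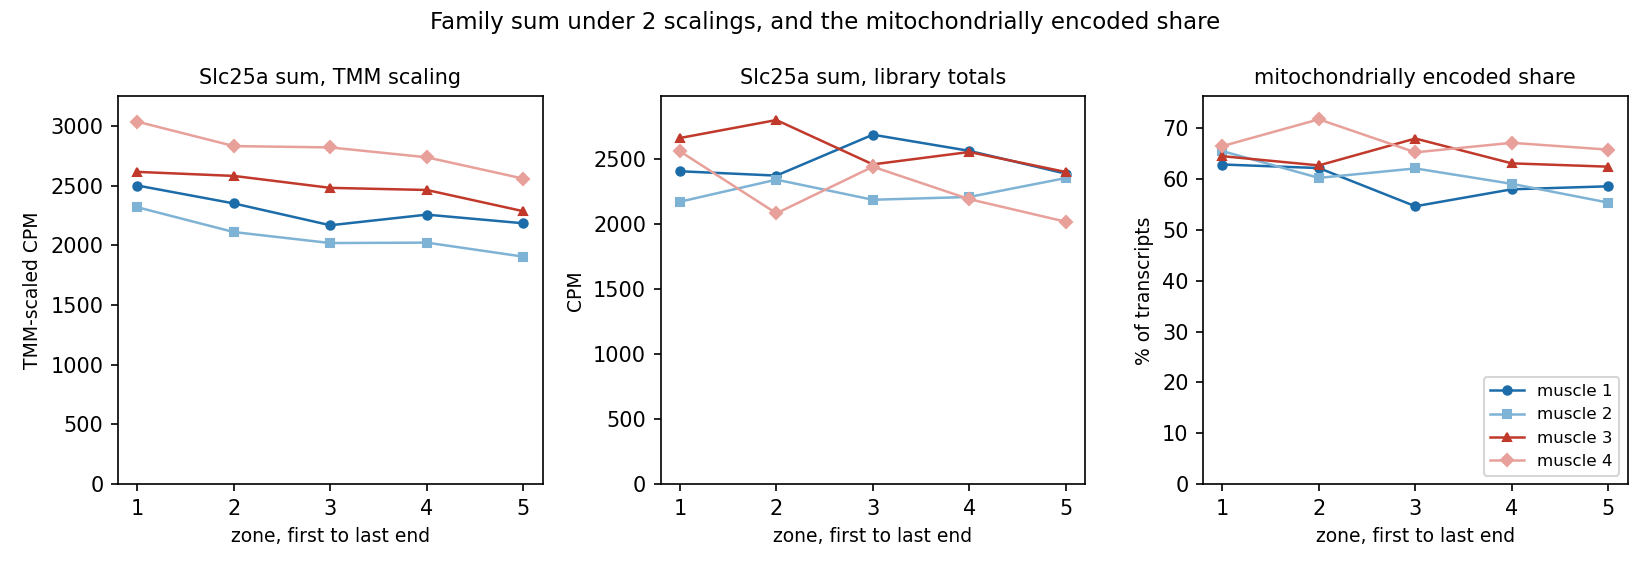
Against zone number, with 1 line per muscle and axes from 0, the summed level of all Slc25a carriers in TMM-scaled CPM (left) and in plain CPM (middle), and the mitochondrially encoded share in % of transcripts (right). The first end lies above the last end in 4 of 4 muscles on the left (2500, 2318, 2614 and 3034 against 2184, 1905, 2285 and 2558), whereas muscle 2 runs the other way in plain CPM (2170 against 2352).

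Genes that work beside the carriers were read from lists of pathway genes, in the same fit and contrast. In it 2.04% of all genes were called higher at the first end, and 8.47% of those at 30 CPM or more. The lists were read only with TMM scaling, on which the carrier calls depend. Of 16 tested genes for ATP synthase, creatine kinase and the matrix protein cyclophilin D (Ppif), 10 were called higher at the first end and none lower, with a median log2 difference of 0.26. The sarcomeric mitochondrial creatine kinase Ckmt2, which turns the ATP exported by ANT1 into phosphocreatine, rose by 0.66 (adjusted p = 4.81e-09 by edgeR), and the ATP synthase subunits Atp5g1 and Atp5d by 0.41 and 0.38. Of the 6 enzymes of the malate-aspartate and glycerol phosphate shuttles 4 were called higher, with a median of 0.31: Mdh1 (0.51), Got1 (0.43), Mdh2 (0.33) and Got2 (0.29). Both pairs of malate-aspartate enzymes were thus called together with Slc25a11, whereas Slc25a12 was not. Of 10 genes of the carnitine system and beta oxidation 7 were called higher, with a median of 0.39, among them Acadvl (0.60), Cpt2 (0.59), Acadl (0.53) and Hadha (0.47).

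In other mitochondrial lists no gene was called, beside 3.18% of all genes between the first and last end and 1.45% between ends and middle, shares at which lists of this size hold few calls or none. None of 13 tested genes for other transport across the inner membrane (among them the pyruvate carrier genes Mpc1 and Mpc2 and the calcium uniporter Mcu) was called in either contrast, nor were any of the 3 outer membrane channels Vdac1, Vdac2 and Vdac3, nor any of 13 genes for the import of carrier proteins, such as Timm22, Timm9 and Timm10. Their medians between the first and last end were 0.02, 0.08 and 0.10. Whether these lists differ from those above was not tested. Of 9 genes of iron-sulfur and haem synthesis, Alas2, the erythroid enzyme, was called higher at the first end (2.27) and no other. SLC25 proteins that go by other symbols were tested in 4 cases. Ucp3, the uncoupling protein of muscle, averaged 40.02 ± 17.2 CPM (65.3, 33.96, 27.01 and 33.8 in muscles 1 to 4). Ucp2 was called lower at the ends than in the middle (log2 difference −0.41, adjusted p = 0.0462 by edgeR, negative in 3 of 4 muscles), and none of the 4 was called between the first and the last end. Ucp2 is also expressed by macrophages, and 1 of their 4 tested markers, C1qb, was called lower at the ends as well. The macrophage list summed to 16.03 to 32.2 TMM-scaled CPM in zone 1 and 21.6 to 33.9 in zone 5, against 26.8 to 59.4 in zone 3. Markers of other cells were also called lower at the ends: 4 of 6 fibro-adipogenic progenitor, 4 of 5 Schwann cell and 1 of 6 endothelial markers. In the same contrast 2 of 2 adipocyte and 2 of 4 tendon markers were called higher. The part of any of these cells in the result was not tested.

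Some markers of other cells also differed along the same axis, in a contrast where 3.18% of all genes were called (11.9% of those at 30 CPM or more). All 5 erythrocyte markers were called higher at the first end, with a median log2 difference of 1.68 and a summed level of 1342 to 4215 TMM-scaled CPM there, against 604 to 1611 at the last end. Of the tendon markers 3 of 4 tested were called lower at the first end, with a summed level of 10.3 to 21.2 there, against 34.6 to 132 at the last end. Of the Schwann cell markers 2 of 5 were called higher at the first end, as were 2 of 5 smooth muscle and pericyte markers, 1 of 6 endothelial and 1 of 6 fibro-adipogenic progenitor markers. Only 4 macrophage markers, 2 adipocyte markers and 1 satellite cell marker were tested, and none of them was called. None of these lists had a defining marker at 0. The fibre markers were split: Myh1, the myosin of type 2X fibres, was called higher (0.29) and Myh4, the myosin of type 2B fibres, lower (−0.31) at the first end, and neither of the 2 tested slow and oxidative markers was called. The part of these cells and fibre types in the carrier differences was not tested, and in bulk sections fewer cells of a type and less RNA per cell cannot be told apart.

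Single sections give a finer view within each muscle, with sections of 1 muscle sharing a library. Slc25a4 ranged from 868 to 2621 plain CPM over sections, and its coefficient of variation was 13.02, 15.2, 18.9 and 20.8% in muscles 1 to 4. Counting alone gives 3.53, 4.32, 3.17 and 3.51% at the mean count of a section, and more in shallower sections. These counting values take no account of the correction for repeated UMIs. Slc25a20 varied by 32.5, 38.5, 40.4 and 44.2%, where counting alone gives 24.4, 31.2, 24.6 and 30.3% at the mean count. Its values in single sections thus carry much counting error. In muscle 3 a single section held the highest plain CPM of 6 of the 7 carriers described by zone, and that section had the lowest mitochondrially encoded share of its muscle, 50.4% beside a median of 64.3%. It also had the highest total of all sections, 1159697 transcripts. In muscles 1, 2 and 4 the section with the lowest share held the highest level of 2, 3 and 3 of the 7, at totals of 353937, 312468 and 132484 transcripts. Correlations over sections are therefore given over nuclear-encoded transcripts, as descriptions that share libraries and depth. On that scale Slc25a4 followed the summed ATP synthase subunits with Spearman coefficients of 0.24, 0.57, 0.74 and 0.80 over the 37, 45, 46 and 43 sections of muscles 1 to 4, Slc25a3 with 0.65, 0.64, 0.74 and 0.51, and Slc25a4 followed Slc25a12 with 0.42, 0.54, 0.44 and 0.59. Slc25a39 followed the ATP synthase subunits with 0.47, 0.51, 0.65 and 0.55, the summed erythrocyte markers with 0.56, 0.57, 0.56 and 0.53, and Myh2 with 0.48, 0.64, 0.41 and 0.33. Slc25a3 followed the erythrocyte markers with 0.43, 0.66, 0.52 and 0.35. Other carriers did so as well: Slc25a4 with −0.11, 0.37, 0.52 and 0.63, Slc25a12 with 0.10, 0.55, 0.42 and 0.31, and Slc25a11 with 0.21, 0.32, 0.37 and 0.49. Slc25a20 had 0.40, 0.20, 0.34 and 0.22, and Slc25a51 had −0.10, −0.09, 0.07 and 0.34. The part of erythrocytes in these levels was not tested.

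Carrier levels also differed between the barcode batches, at a share near that of all genes when taken over all transcripts. Batch differences cannot be told apart from differences between the muscles themselves. Over all transcripts, 9 of the 28 tested carriers were higher in both of muscles 1 and 2 than in both of muscles 3 and 4, 10 were lower in both and 9 overlapped. The values of the pairs were thus apart for 67.9% of the tested carriers. Over all genes tested they were apart for 65.3%, with 46.4% higher and 18.9% lower in muscles 1 and 2. A fold of 2 or more was seen in 2 carriers (7.14%), against 16.6% of all genes. Over nuclear-encoded transcripts instead (an alternative chosen after seeing the data), 7 carriers were higher in muscles 1 and 2, 15 were lower and 6 overlapped, and 64.9% of the 9299 nuclear genes tested were apart, with 34.6% higher and 30.3% lower. A fold of 2 or more was then seen in 6 carriers, against 15.1% of these genes. Slc25a4, which overlapped over all transcripts, had 3847 and 3609 nuclear-scaled CPM in muscles 1 and 2, against 4716 and 4606 in muscles 3 and 4, and was lower in both of muscles 1 and 2. Slc25a25, whose product exchanges ATP-Mg for phosphate and is activated by calcium, had 36.7 and 33.3 CPM in muscles 1 and 2, against 4.41 and 1.22 CPM in muscles 3 and 4, a ratio of 12.4; 0.945% of all genes were at least as far from 1. It held 26.5 to 38.4 TMM-scaled CPM in every zone of muscles 1 and 2, against 0.8 to 5.0 in every zone of muscles 3 and 4, so the gap ran the whole length. Slc25a25 overlaps Naif1 on the opposite strand, and the share of its counts that comes from there was not tested. On the plain scale Slc25a39 was 1.69-fold higher and Slc25a51 1.76-fold lower in muscles 1 and 2 than in muscles 3 and 4, and on the nuclear scale 1.45-fold higher and 2.04-fold lower. These genes were singled out after their values were seen, and no test was made on pairs of 2 muscles.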

How the data were processed

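For each muscle the authors deposited estimated counts per gene and section barcode (expected counts, UMIs corrected for repeated draws from 4096 possible ones, from the values) for 96 barcodes; UMIs had 6 bases and section barcodes 8, per the labels' protocols. The submitters' processing notes name STAR 2.7.7a and GRCm38; the sources used here name no counting program and no annotation, and say nothing of strand. The filtered tables deposited by the authors hold a normalized signal and were used only to learn which sections were kept, matched within a relative tolerance of 1e-06. Entries naming more than 1 gene (0.58 to 0.93% of counts) entered no test and no total.

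Counts were rounded and summed per muscle and zone (20 sums) and fitted in R 4.3.3 with edgeR 4.0.16 (TMM scaling, filterByExpr, quasi-likelihood F-test), with muscle as a block, since a muscle's zones come from the same tissue and library; the biological coefficient of variation was 7.03%. The alternatives used DESeq2 1.42.0, limma 3.58.1 with a pseudocount of 1 CPM, other scalings, 3 or 10 zones, and subsets of sections and muscles. The limma setting took plain CPM of sections at equal weight, without TMM, so it changes the scaling as well as the method. On data simulated for 9260 genes the ends-minus-middle fit recovered 24% of genes changed 1.25-fold, 57.1% of those changed 1.5-fold and 78% of those changed 2-fold. The simulated muscles did not differ from each other in gene levels, and the changed genes were drawn over all levels. The first-end contrast was not simulated, so these shares do not describe it or the carriers. Gene coordinates are those of GENCODE M21, in which all 47 carriers were matched by identifier. Values by muscle and zone were given for each carrier past the threshold in a contrast or at 30 CPM or more on average; list genes were named where called, at most 4 of a list, largest first. The values of 1 carrier, which is included in the counts, are not reported here. The family, lists and contrasts were chosen with earlier results of these data known; the members were then taken by name. Replicates are muscles; intervals over counts cover counting error only.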

Additional observations from a re-analysis of the deposited data

Results flagged for a closer look

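In 21 sets of values from 4 muscles, 1 sample stood far from the other 3 by Dixon's criterion, and chance alone gives about 1 in 20. The ends-minus-middle log2 difference of Slc25a51 was −0.035 in muscle 1, whereas it lay between 0.20 and 0.24 in the other 3 muscles.

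Barcodes outside the kept sections held 1309, 1198, 1114 and 896 Slc25a transcripts in muscles 1 to 4, which entered no comparison. Entries that name an Slc25a gene together with other genes held 333, 233, 104 and 30 transcripts, 700 in all, beside 207610 in the entries that were used.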

How the results depend on the processing

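No setting gave a call between ends and middle. The first-end count of 4 called carriers became 1 with 10 zones, 0 with limma, 2 after thinning to the shallowest sum, 0 with library totals in place of TMM, 2 in muscles 1 and 2 alone, 1 in muscles 3 and 4 alone, and 0 to 4 when 1 muscle was left out (0 without muscle 2); it was 3 to 5 in the other settings with all muscles and the block. Without the replicate block, that is, without pairing zones by muscle, it was 0, and the count for any difference among zones was 0 instead of 3. That count was also 5 with 3 zones, 0 with limma, 0 in muscles 3 and 4 alone, 0 with library totals, 5 with nuclear-encoded totals, and 0 to 3 when 1 muscle was left out (0 without muscle 2, 1 without muscle 3). The first-end differences of Slc25a3, Slc25a39, Slc25a11 and Slc25a20 stayed positive in all 19 settings. Signs turned only for differences that were not called. Ends minus middle, Slc25a4 was −0.027 in muscles 3 and 4, −0.020 with library totals and −0.021 with nuclear-encoded totals; Slc25a12 was −0.013 with limma, −0.022 with library totals and −0.019 with nuclear-encoded totals; Slc25a39 was 0.0076 in muscles 3 and 4; Slc25a11 was 0.054 in muscles 1 and 2 and −0.12 to 0.044 when 1 muscle was left out; Slc25a20 was 0.056 with 3 zones, 0.13 in muscles 1 and 2 and −0.14 to 0.062 when 1 muscle was left out. First minus last end, Slc25a51 was −0.013 with limma, −0.017 in muscles 1 and 2 and −0.033 with library totals. Slc25a4 was called at the first end with RLE or DESeq2, and with mitochondrially encoded genes left out of the scaling or of the totals. The limma setting, like that with library totals, used no TMM scaling. The causes were not tested. Zone orders by kept sections, scaling by library totals and by nuclear-encoded totals were chosen after seeing the data.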
